A study of Mus musculus with 6 samples.

Results

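RNA-seq of A20 cells carrying TETact-v3 with a sgRNA against Cd4 was compared with RNA-seq of the same cells carrying a non-targeting control sgRNA. The comparison held 4 of the 6 libraries of the series, chosen by their sample labels, with 2 replicates of each sgRNA, and 12430 of 27179 gene identifiers had enough counts to be tested. The other 2 libraries were wild-type A20 cells, which served as a reference level and also entered the estimate of spread. A20 is a B cell lymphoma line of BALB/c mice. TETact-v3 joins a catalytically inactive Cas9 with GCN4 epitopes, the catalytic domain of TET1 brought in by an antibody fragment, and a p65-HSF1 activator held by MS2 aptamers on the sgRNA. Both transduced groups therefore carried the same effectors on lentiviral vectors and differed by label in the sgRNA alone, and the study's methods give day 7 from sgRNA delivery as the time of harvest. The study's methods describe the samples as independent repeats, without saying whether each was a separate transduction. The p-values of the main fit rested on the spread within groups over all 6 libraries, the wild-type pair included.

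Cd4 encodes the co-receptor that helper T cells use to read MHC class II, and it is kept silent in B cells. TET1 oxidises methylated cytosine, which leads to loss of methylation, whereas p65 is the activating subunit of NF-kB and HSF1 the main heat shock factor. A comparison of 2 sgRNAs in cells that share these effectors asks what goes with the guide rather than with the effectors. The hypoxia-inducible factor HIF is stabilised when oxygen falls, and it switches on glucose uptake, glycolysis, lactate export and its own inhibitors, the EGLN prolyl hydroxylases.

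The 2 control libraries differed from each other more than the Cd4 sgRNA libraries did. Total counts were 35316997 and 48466039 with Cd4 sgRNA, and 121623410 and 92285875 with control sgRNA. The median gene differed by 0.0861 log2 CPM between the Cd4 sgRNA replicates and by 0.275 between the control replicates, where CPM is counts scaled to library size after TMM scaling. At least 2-fold differences separated the Cd4 sgRNA replicates at 259 genes and the control replicates at 767 genes. Both Cd4 sgRNA libraries lay nearer to control replicate 1, at a median distance of 0.153 and 0.171, than to control replicate 2, at 0.346 and 0.371. Mitochondrial genes took 5.96% and 6.90% of the counts with Cd4 sgRNA, 6.63% in control replicate 1 and 11.5% in control replicate 2, and their part in the results was not tested. Among B cell markers, Ms4a1 lay between 263 and 332 CPM, Cd79a between 207 and 265 CPM and Pax5 between 56.1 and 69.8 CPM in the 4 libraries. The T cell markers Cd3e and Cd8b1 were at 0 counts in all 4, and the 6 T cell markers summed to at most 0.054 CPM. The 6 macrophage and monocyte markers, nearly all Cd68, summed to 234 CPM in both Cd4 sgRNA libraries and to 253 and 300 CPM in the controls, with Cd14 at 0 counts. The 4 epithelial markers summed to 14.1 and 13.1 CPM with Cd4 sgRNA and to 25.9 and 37.1 CPM with control sgRNA, nearly all of it Epcam, with 14.0 and 13.0 CPM against 25.6 and 36.5 CPM. Krt8 and Cdh1 were at or below 0.0305 CPM in these 4 libraries. Because the control libraries differed, results are given against both control libraries together and, for many of them, also against each alone.

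Cd4, the target, was the most changed gene. Its level was 945 and 913 CPM in the Cd4 sgRNA libraries, against 1.14 and 1.53 CPM in the control libraries and 0.796 and 0.794 CPM in wild-type cells. Both Cd4 sgRNA libraries were far above all others, and the control and wild-type libraries stayed between 0.794 and 1.53 CPM. Cd4 rose by a log2 fold change of 9.46 ± 0.17 (SE, n = 2 against 2, adjusted p = 1.33e-05, edgeR quasi-likelihood test with Benjamini-Hochberg adjustment). Against control replicate 1 alone it was 9.66, and against control replicate 2 alone 9.25. Cd4 lies on chromosome 6 at 124864693 to 124888247 of GRCm38.

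Besides Cd4, 2 genes rose and 6 fell past an adjusted p of 0.05, so that with Cd4 0.0241% of tested genes were higher, 0.0483% lower and 0.0724% called in either direction. The genes that rose were Vcam1, a cell adhesion molecule that NF-kB induces, and Shank1, a scaffold protein of synapses. The 5 of these named here that fell were Slc2a1, the glucose transporter GLUT1, Slc16a3, the lactate exporter MCT4, Mboat2, a lysophospholipid acyltransferase, Stc1, a secreted glycoprotein induced by hypoxia, and Zfp395, a zinc finger gene on the hypoxia list. This count depended on which libraries entered. With either Cd4 sgRNA replicate left out, only Cd4 passed, and the adjusted p of the other 7 named genes lay between 0.316 and 0.499 without replicate 1 and between 0.584 and 0.641 without replicate 2. A fit to the 4 transduced libraries alone likewise kept only Cd4, with adjusted p between 0.128 and 0.325 for the other 7.

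Vcam1 stood at 6.50 and 8.36 CPM with Cd4 sgRNA and at 1.37 and 1.82 CPM with control sgRNA, while wild-type cells had 0.0861 and 0.0467 CPM. The transduced groups did not overlap, and all 4 transduced libraries were above wild type. Vcam1 rose by a log2 fold change of 2.25 ± 0.21 (adjusted p = 0.0203), 2.46 against control replicate 1 alone and 2.05 against control replicate 2 alone. The voomLmFit test, an alternative, gave an adjusted p of 0.0682.

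Shank1 had 3.17 and 3.03 CPM with Cd4 sgRNA, 0.522 and 0.309 CPM with control sgRNA, and 0.603 and 0.654 CPM in wild-type cells. The control libraries lay a little below wild type, and both Cd4 sgRNA libraries stood above all others. Shank1 rose by a log2 fold change of 2.84 ± 0.27 (adjusted p = 0.0401), resting on 104 and 134 counts against 58 and 25, and voomLmFit gave an adjusted p of 0.0682. Against control replicate 1 alone the log2 fold change was 2.56, and against control replicate 2 alone 3.32.

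Among the genes that fell, Slc2a1 had 111 and 108 CPM with Cd4 sgRNA, 276 and 293 CPM with control sgRNA and 118 and 125 CPM in wild-type cells. Cd4 sgRNA libraries were thus at the wild-type level and both control libraries above it. Slc2a1 had a log2 fold change of -1.38 ± 0.09 (adjusted p = 0.0101), -1.34 against control replicate 1 alone and -1.42 against control replicate 2 alone.

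The same order held for Slc16a3, with 196 and 200 CPM under Cd4 sgRNA, 496 and 462 CPM under control sgRNA and 218 and 233 CPM in wild-type cells. Its log2 fold change was -1.28 ± 0.09 (adjusted p = 0.0137), and the 2 control libraries gave -1.33 and -1.22 alone. GLUT1 brings glucose into the cell and MCT4 takes the lactate out, so these transporters sit at either end of glycolysis.

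Mboat2 had 0.153 and 0.136 CPM with Cd4 sgRNA, from 5 and 6 counts, against 2.92 and 3.04 CPM with control sgRNA and 0.495 and 0.607 CPM in wild-type cells. Here the Cd4 sgRNA libraries were below wild type as well, and the control libraries above it. Mboat2 had a log2 fold change of -4.36 ± 0.31 (adjusted p = 0.0140), -4.33 and -4.38 against the control replicates alone. Stc1 had 2.20 and 1.74 CPM with Cd4 sgRNA, 11.4 and 12.1 CPM with control sgRNA and 1.83 and 2.71 CPM in wild-type cells.

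The log2 fold change of Stc1 was -2.59 ± 0.21 (adjusted p = 0.0203), -2.56 against control replicate 1 alone and -2.63 against control replicate 2 alone. Zfp395 had 19.6 and 19.11 CPM with Cd4 sgRNA, 41.5 and 44.8 CPM with control sgRNA and 23.7 and 23.3 CPM in wild-type cells. Its log2 fold change was -1.16 ± 0.10 (adjusted p = 0.0203), -1.10 against control replicate 1 alone and -1.21 against control replicate 2 alone. For Stc1 and Zfp395, too, the Cd4 sgRNA libraries were near wild type and the control libraries higher.

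**Figure D1:**
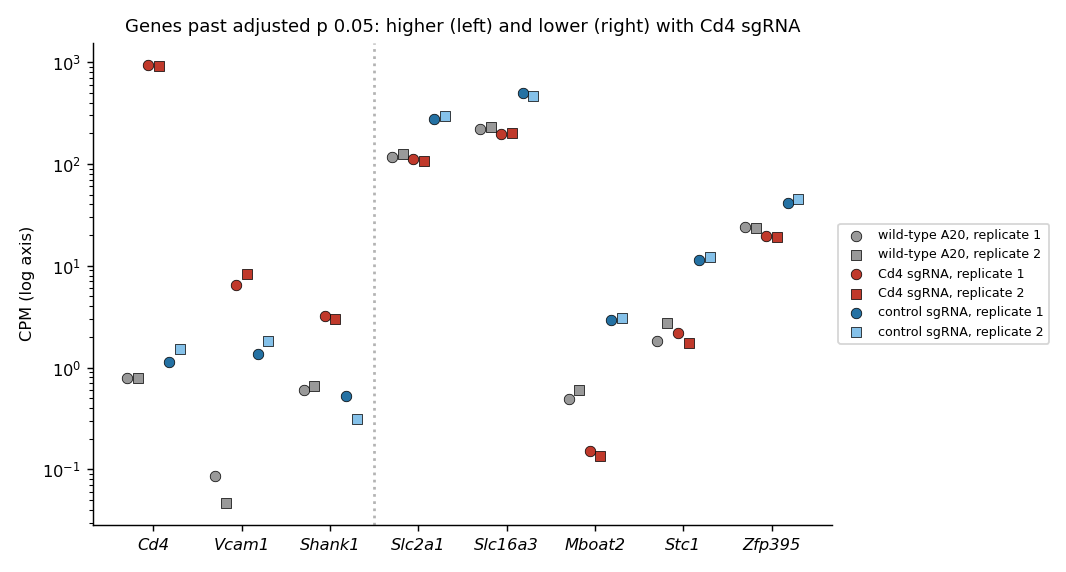
CPM (log axis) of the 8 named genes past an adjusted p of 0.05, 1 point per library, with circles for replicate 1 and squares for replicate 2. Cd4 is at 945 and 913 CPM in the Cd4 sgRNA libraries and near 1 CPM elsewhere, and for Slc2a1, Slc16a3, Stc1 and Zfp395 the control libraries lie above both other groups.

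The sequences before the start sites of Slc2a1 and Slc16a3 are shown because both genes fell and are textbook targets of HIF, which binds the core letters ACGTG or GCGTG. They run from base 250 to base 21 before the RefSeq start, 5′ to 3′ on the plus strand of GRCm38.p6, and capitals mark the core on either strand (ACGTG or GCGTG, or CACGT or CACGC read from the other strand). The first lies at chr4:119108495-119108724, and the second at chr11:120948817-120949046, where the RefSeq entry starts downstream of the first base annotated for Slc16a3.
Slc2a1: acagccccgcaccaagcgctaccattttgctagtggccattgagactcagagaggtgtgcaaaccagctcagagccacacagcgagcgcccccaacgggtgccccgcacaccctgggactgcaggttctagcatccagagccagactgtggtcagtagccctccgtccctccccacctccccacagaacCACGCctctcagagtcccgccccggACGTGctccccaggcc
Slc16a3: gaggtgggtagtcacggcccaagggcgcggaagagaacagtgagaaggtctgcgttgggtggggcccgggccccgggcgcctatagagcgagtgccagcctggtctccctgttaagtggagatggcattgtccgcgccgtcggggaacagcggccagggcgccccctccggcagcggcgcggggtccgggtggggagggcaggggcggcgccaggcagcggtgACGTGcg

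The core is common, so its presence is a description and not a site. It occurred in 36.0% of all 32851 RefSeq promoter windows of this length and in 51.9% of the 12270 windows of tested genes. Among glycolysis and transport genes 28 of 36 windows held it (77.8%), and among hypoxia targets outside glycolysis 21 of 31 (67.7%). Entries existed for 23 of 24 and 25 of 30 of those tested genes. The palindrome CACGTG, which holds the core on both strands and is also the E-box, occurred in 5.35% of all windows. It was in 7.29% of windows of tested genes, 11.1% of glycolysis and transport windows and 6.45% of hypoxia target windows.

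The hypoxia targets outside glycolysis were the list with the lowest median. All lists were chosen with earlier results of these data known, so their ranks and counts of members are description and not a test. Of 39 listed genes 30 were tested, and 29 of them had both Cd4 sgRNA libraries below both control libraries, where 30.2% of all tested genes did. The remaining member, P4ha2, had a single count in these 4 libraries. The median log2 CPM difference was -1.05, against -0.00553 over all tested genes. It was -0.758 against control replicate 1 alone and -1.32 against control replicate 2 alone. Stc1 and Zfp395 passed the adjusted threshold, and 10 members were at least 2-fold apart without overlap, where 0.724% of tested genes were at least 2-fold lower. The epithelial marker Epcam was lower with Cd4 sgRNA as well, and its part in these results was not tested.

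Ndrg1, a stress-responsive gene with strong induction by hypoxia, had the lowest log2 fold change of the list. Its level was 7.26 and 4.79 CPM with Cd4 sgRNA, 46.1 and 139 CPM with control sgRNA and 18.2 and 18.6 CPM in wild-type cells. Cd4 sgRNA libraries lay below wild type and control libraries above, and the control replicates were themselves 46.1 against 139 CPM. For Ndrg1 the log2 fold change was -3.96 ± 0.57 (adjusted p = 0.104), -2.97 and -4.56 against the control replicates alone.

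Bnip3, a mitophagy receptor, was just outside the threshold, with 148 and 131 CPM under Cd4 sgRNA against 301 and 360 CPM under control sgRNA and 133 and 144 CPM in wild-type cells (log2 fold change -1.24 ± 0.12, adjusted p = 0.0510). Cd4 sgRNA and wild-type libraries overlapped, and both control libraries were higher. Several further members at least 2-fold apart are named here after their values were seen. Bhlhe40, a clock and stress repressor, had 33.0 and 31.2 CPM against 76.2 and 114 CPM (adjusted p = 0.0926). Vegfa, the vascular growth factor, had 7.66 and 6.42 CPM against 16.2 and 42.5 CPM (adjusted p = 0.119). The groups did not overlap for either gene, and control replicate 2 was the highest library.

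Ddit4, an inhibitor of mTORC1, had 50.3 and 41.8 CPM with Cd4 sgRNA, 108 and 411 CPM with control sgRNA and 47.0 and 47.2 CPM in wild-type cells. Control replicate 2 stood well above all other libraries. The log2 fold change was -2.49 ± 0.58 (adjusted p = 0.120), -1.23 against control replicate 1 alone and -3.16 against control replicate 2 alone.

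Of the HIF subunits and regulators 10 of 12 listed genes were tested and 0 passed the adjusted threshold in edgeR, while 5 had an unadjusted p under 0.05, all of them lower, where 13.6% of tested genes were. The median difference was -0.375, with -0.260 and -0.331 against the control replicates alone. Egln1 and Egln3, prolyl hydroxylases that HIF itself induces, were also on the hypoxia list. Egln1 had 94.0 and 82.1 CPM with Cd4 sgRNA, 219 and 356 CPM with control sgRNA and 108 and 113 CPM in wild-type cells (log2 fold change -1.71 ± 0.23, adjusted p = 0.0976). Egln3 had 0.183 and 0.113 CPM against 0.882 and 1.93 CPM (adjusted p = 0.114). Neither gene's groups overlapped. DESeq2 called 3 members of this list lower, where it called 7.92% of its genes lower, and voomLmFit called 0.

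The subunit genes differed little. Hif1a, the oxygen-regulated subunit, had 177 and 170 CPM with Cd4 sgRNA, 173 and 157 CPM with control sgRNA and 174 and 168 CPM in wild-type cells, with overlapping ranges (log2 fold change 0.07 ± 0.09). Arnt, its partner, had 115 and 112 CPM against 123 and 130 CPM (log2 fold change -0.16 ± 0.08, adjusted p = 0.257).

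In the list of glycolysis and glucose or lactate transport, 24 of 25 genes were tested. Slc2a1 and Slc16a3 passed the adjusted threshold. An unadjusted p under 0.05 in the lower direction was found for 19 members, where 13.6% of all tested genes had one. Both Cd4 sgRNA libraries lay below both controls for 20 members and above both for 1, where 30.2% and 29.5% of all tested genes did. The median difference was -0.543, with -0.365 against control replicate 1 and -0.743 against control replicate 2. Members at least 2-fold lower without overlap numbered 3, where 0.724% of tested genes were.

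The lowest member was Eno2, an enolase of neurons that hypoxia also induces, with 9.31 and 9.15 CPM under Cd4 sgRNA, 27.4 and 95.8 CPM under control sgRNA and 7.64 and 7.47 CPM in wild-type cells. Its control libraries differed by more than control replicate 1 differed from Cd4 sgRNA. The log2 fold change was -2.73 ± 0.57 (adjusted p = 0.115), -1.57 and -3.37 against the control replicates alone. Pfkp, the platelet-type phosphofructokinase, had 269 and 266 CPM against 472 and 731 CPM (adjusted p = 0.104). Aldoa, an aldolase among the most abundant members, had 3385 and 3157 CPM against 3906 and 7473 CPM (adjusted p = 0.172). For both genes the groups did not overlap and control replicate 2 was highest.

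The member that went the other way was Slc2a6, a lysosomal hexose transporter that is also on the NF-kB list. It had 49.5 and 49.3 CPM with Cd4 sgRNA, 23.99 and 19.8 CPM with control sgRNA and 22.7 and 22.9 CPM in wild-type cells. Only the Cd4 sgRNA libraries stood apart. The log2 fold change was 1.17 ± 0.12 (adjusted p = 0.0510), 1.04 and 1.32 against the control replicates alone.

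**Figure D2:**
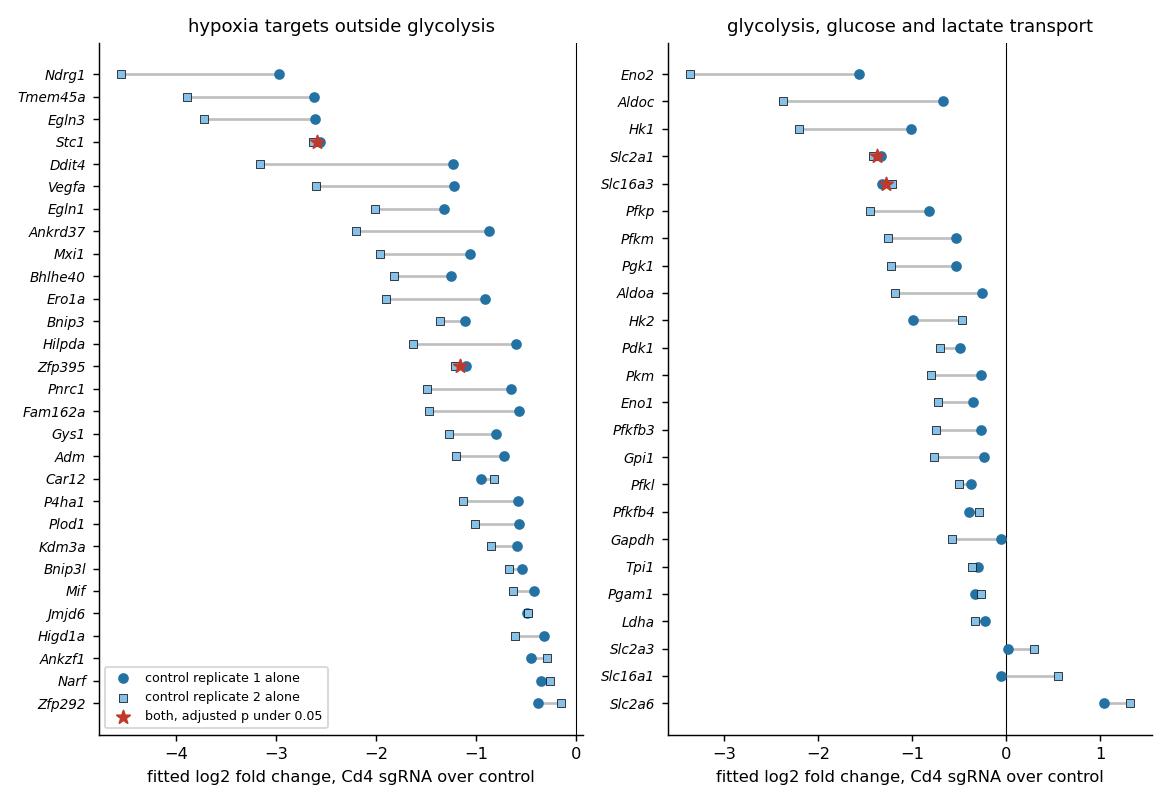
Fitted log2 fold change of Cd4 sgRNA over control replicate 1 alone (circles) and control replicate 2 alone (squares) for hypoxia targets outside glycolysis and for glycolysis and transport genes with more than 3 counts in the 4 libraries. Stars mark the fold change over both controls where the adjusted p was under 0.05, as at Slc2a1 (-1.38) and Stc1 (-2.59). Ddit4 and Eno2 show wide gaps between the controls, and Slc2a6 lies to the right of 0.

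Relative to wild-type cells, the list medians placed the Cd4 sgRNA libraries near 0 and the control libraries apart. For hypoxia targets outside glycolysis they were -0.0094 and -0.202 with Cd4 sgRNA, and 0.780 and 1.41 with control sgRNA. For glycolysis and transport they were -0.0502 and -0.163 with Cd4 sgRNA, and 0.329 and 0.466 with control sgRNA. As list medians, lower hypoxia and glycolysis values in Cd4 sgRNA cells than in control cells thus went with control libraries above the wild-type level. Slc2a1 and Slc16a3 followed this, but not every member did. Pkm had 5511 and 5709 CPM in wild-type cells, 3691 and 5357 CPM with control sgRNA and 3355 and 2774 CPM with Cd4 sgRNA. Ldha had 4290 and 4577 CPM in wild-type cells, 3425 and 3713 CPM with control sgRNA and 3131 and 2742 CPM with Cd4 sgRNA. For both genes all transduced libraries lay below wild type. The sgRNA and other differences between the cultures cannot be told apart with 2 libraries a side.

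**Figure D3:**
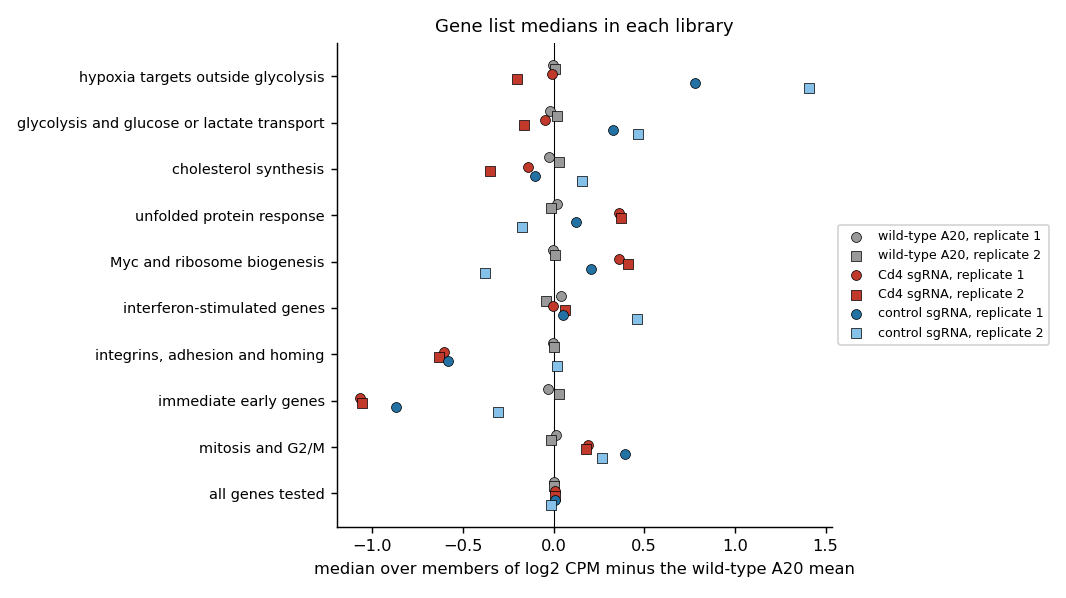
Median over the members of a list of log2 CPM minus the wild-type mean, 1 point per library. The control libraries reach 0.780 and 1.41 for hypoxia targets while the Cd4 sgRNA libraries lie at -0.0094 and -0.202, and for all tested genes every library is near 0.

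Sterol genes lay lower in the Cd4 sgRNA libraries to a smaller degree. Of 26 tested members of the cholesterol synthesis list, 17 had both Cd4 sgRNA libraries below both controls and 1 above both. Over all tested genes these shares were 30.2% and 29.5%. Of these members 0 were called in edgeR. An unadjusted p under 0.05 was found for 12, all lower, where 13.6% of tested genes were. DESeq2 called 8 lower, where it called 7.92% of its 11225 genes lower. The median difference was -0.283, with -0.180 and -0.388 against the control replicates alone. Insig1, which holds the sterol sensor in the endoplasmic reticulum, had 32.7 and 26.8 CPM against 66.2 and 95.8 CPM (log2 fold change -1.45 ± 0.20, adjusted p = 0.0976). Stard4, a cholesterol carrier, had 32.4 and 27.8 CPM against 47.8 and 63.8 CPM (adjusted p = 0.104). For both genes the groups did not overlap, and control replicate 2 was highest.

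On the list of fatty acid synthesis and glycerolipid acyltransferases, Mboat2 was the 1 gene of 27 tested that passed, and the median was -0.0885. Lpin1, a phosphatidate phosphatase, had 20.2 and 16.0 CPM with Cd4 sgRNA, 46.4 and 82.3 CPM with control sgRNA and 19.8 and 18.7 CPM in wild-type cells (log2 fold change -1.83 ± 0.28, adjusted p = 0.104). Gpat3, which starts glycerolipid synthesis, had 9.83 and 9.38 CPM against 19.12 and 42.6 CPM (adjusted p = 0.118). Fasn, the fatty acid synthase, had 1073 and 1065 CPM against 924 and 666 CPM (log2 fold change 0.43 ± 0.16, adjusted p = 0.179). Lpin1 and Gpat3 were thus lower and Fasn higher in both Cd4 sgRNA libraries, and none of the 3 passed.

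Endoplasmic reticulum chaperones and folding enzymes of the unfolded protein response lay on the higher side. Of 22 tested members 17 had both Cd4 sgRNA libraries above both controls, where 29.5% of all tested genes did, and 10 had an unadjusted p under 0.05, all higher, where 11.3% of tested genes were. No member passed the adjusted threshold in edgeR, DESeq2 called 5 higher, where it called 4.79% of genes higher, and voomLmFit called 0. The median difference was 0.309, with 0.176 and 0.390 against the control replicates alone. Edem1, a lectin of endoplasmic reticulum associated degradation, had 227 and 225 CPM with Cd4 sgRNA, 157 and 173 CPM with control sgRNA and 122 and 126 CPM in wild-type cells (log2 fold change 0.46 ± 0.09, adjusted p = 0.113). Dnajc3, a co-chaperone, had 164 and 182 CPM against 120 and 85.1 CPM (adjusted p = 0.118). Hspa5, the chaperone BiP, had 2066 and 2294 CPM against 1761 and 1291 CPM (adjusted p = 0.151).

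Genes of ribosome biogenesis and Myc followed the control library used. The median over 26 tested members was 0.405, but it was 0.114 against control replicate 1 and 0.778 against control replicate 2, and the control libraries differed by -0.609 between replicate 2 and replicate 1. The number called was 0 in edgeR, with 6 members at an unadjusted p under 0.05, all higher, where 11.3% of tested genes were. DESeq2 called 3 higher, where it called 4.79% of its genes higher, and voomLmFit called 0. Rrp12, needed for export of ribosomal subunits, had 238 and 253 CPM with Cd4 sgRNA and 185 and 81.7 CPM with control sgRNA (log2 fold change 0.88 ± 0.34, adjusted p = 0.190). Myc itself had 78.9 and 82.0 CPM against 92.7 and 66.7 CPM, so its control libraries lay on either side (log2 fold change 0.01 ± 0.16).

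Of 34 tested NF-kB subunits and targets Vcam1 passed, and the median was -0.00977. An unadjusted p under 0.05 was found for 8 in the higher and 5 in the lower direction, where 11.3% and 13.6% of all tested genes were, so that the lower count was near the background. Nfkbiz, an atypical IkB protein, had 128 and 125 CPM with Cd4 sgRNA, 195 and 220 CPM with control sgRNA and 2.15 CPM in both wild-type libraries (log2 fold change -0.72 ± 0.09, adjusted p = 0.0926). Both transduced groups were thus far above wild type, and the Cd4 sgRNA libraries were the lower of them. Nfkbia, the inhibitor IkBα, had 138 and 133 CPM against 187 and 265 CPM (adjusted p = 0.119). Cd40, a co-stimulatory receptor of B cells, had 53.2 and 57.7 CPM against 40.1 and 33.0 CPM (adjusted p = 0.113).

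The endogenous homologues of the effectors did not separate the groups past the threshold. Tet1 had 1.86 and 1.65 CPM with Cd4 sgRNA and 2.18 and 1.88 CPM with control sgRNA (log2 fold change -0.23 ± 0.24). Rela had 100 and 94.3 CPM against 91.6 and 91.1 CPM (log2 fold change 0.09 ± 0.08), and Hsf1 had 51.5 and 55.4 CPM against 64.9 and 58.3 CPM (log2 fold change -0.20 ± 0.10, adjusted p = 0.235). Whether transgene reads were counted in these genes was not tested. The heat shock list had a median of 0.0148 over 19 tested genes, -0.0808 against control replicate 1 and 0.147 against control replicate 2.

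B cell identity and receptor genes had a median of -0.0307 over 30 tested genes and none was called in edgeR. At an unadjusted p under 0.05, 5 were higher and 4 lower, where 11.3% and 13.6% of all tested genes were. DESeq2 called 5 higher and 1 lower, where it called 4.79% and 7.92% of its genes, and voomLmFit called 0. Spi1, the transcription factor PU.1, had 109 and 108 CPM with Cd4 sgRNA and 78.7 and 75.3 CPM with control sgRNA (log2 fold change 0.50 ± 0.08, adjusted p = 0.104). Bcl6, the germinal centre repressor, had 161 and 150 CPM against 209 and 246 CPM (log2 fold change -0.55 ± 0.11, adjusted p = 0.113). Ciita, the master regulator of MHC class II, had 124 and 111 CPM against 80.2 and 69.3 CPM (log2 fold change 0.65 ± 0.11, adjusted p = 0.104). The groups did not overlap for these 3 genes.

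T cell genes other than Cd4 gave little signal. Of 35 listed genes 13 were tested and 0 were called in edgeR. An unadjusted p under 0.05 was found for 3, all lower, where 13.6% of all tested genes were. DESeq2 called 1 lower, where it called 7.92% of its genes lower, and voomLmFit called 0. Lck, the kinase that binds the tail of CD4, had 0.763 and 0.791 CPM with Cd4 sgRNA and 0.720 and 0.816 CPM with control sgRNA, with overlapping groups (log2 fold change 0.03 ± 0.26). Il16, a ligand of CD4, had 204 and 178 CPM against 203 and 280 CPM (log2 fold change -0.34 ± 0.16). The list median was -0.301, but -0.029 against control replicate 1 alone.

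Of 30 tested mitotic genes 17 had both Cd4 sgRNA libraries below both controls, where 30.2% of all tested genes did. An unadjusted p under 0.05 was found for 11, all lower, where 13.6% of tested genes were. In edgeR 0 were called, in DESeq2 7 were lower, where 7.92% of genes were, and in voomLmFit 0 were called. The median was -0.103, with -0.145 and -0.0884 against the control replicates alone. Bub1, a spindle checkpoint kinase, had 154 and 150 CPM with Cd4 sgRNA and 222 and 224 CPM with control sgRNA (log2 fold change -0.56 ± 0.08, adjusted p = 0.101). Cenpf, a kinetochore protein, had 138 and 124 CPM against 215 and 196 CPM (adjusted p = 0.104). For both genes the groups did not overlap. DNA replication and G1/S genes had a median of 0.162, with -0.0425 against control replicate 1 and 0.293 against control replicate 2.

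The interferon-stimulated, immediate early and adhesion lists had medians near 0 against control replicate 1 and further below it against control replicate 2. Their medians were -0.259, -0.292 and -0.216 against both controls, -0.0142, -0.0625 and 0.00283 against control replicate 1, and -0.546, -0.519 and -0.286 against control replicate 2. On the adhesion list Vcam1 was called. Cxcr4, the receptor for CXCL12, had 51.1 and 43.4 CPM with Cd4 sgRNA and 71.0 and 98.2 CPM with control sgRNA (log2 fold change -0.84 ± 0.17, adjusted p = 0.113). Itgb3, the integrin β3 chain, had 54.0 and 47.5 CPM against 78.8 and 221 CPM (adjusted p = 0.142), and Jun, an AP-1 subunit, had 3.78 and 3.41 CPM against 6.23 and 15.7 CPM (adjusted p = 0.146). In both Itgb3 and Jun control replicate 2 stood far above the other 3 libraries. The integrated stress response list had a median of 0.0171, and its members went both ways. Slc7a11, the cystine transporter, had 10.3 and 7.39 CPM against 5.4 and 4.005 CPM (log2 fold change 0.89 ± 0.22, adjusted p = 0.127). Atf3 had 0.977 and 0.836 CPM against 2.34 and 8.59 CPM (log2 fold change -2.57 ± 0.78), and it was not called in edgeR.

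**Figure D4:**
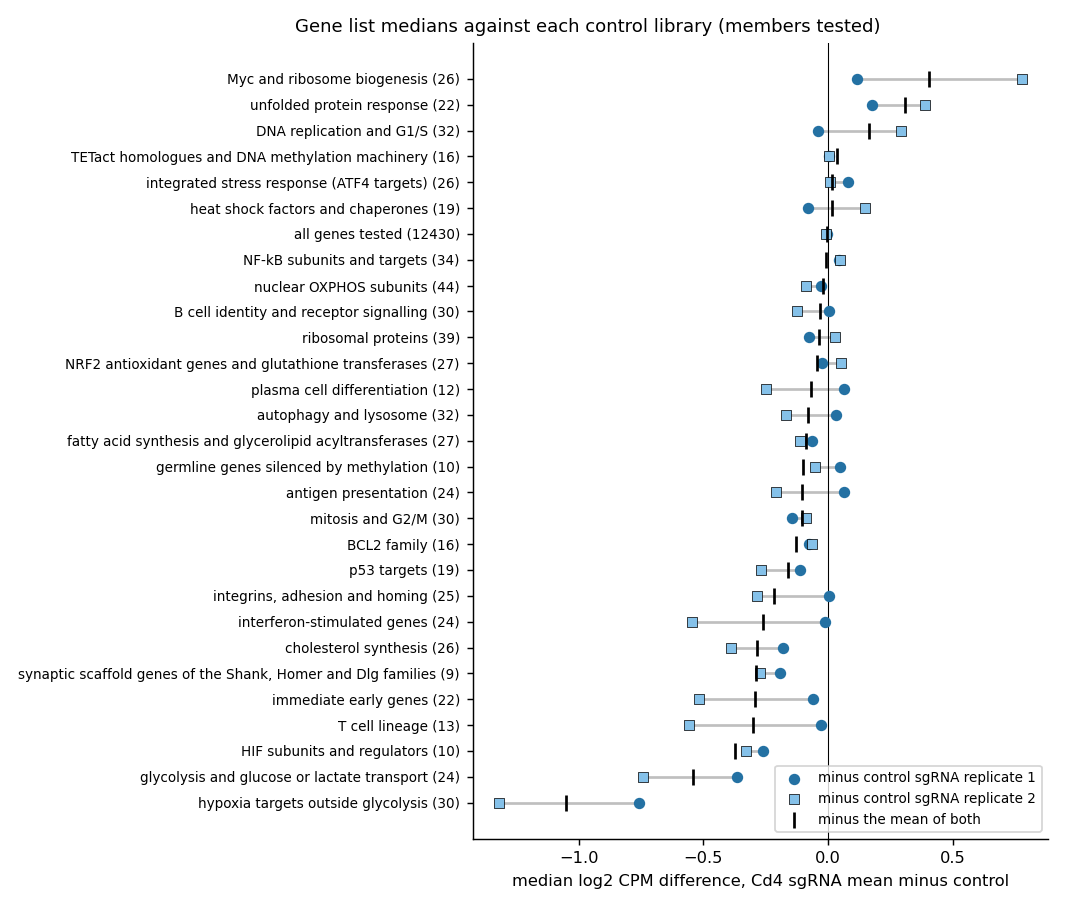
Median over the tested members of each list (number in brackets) of the log2 CPM difference, Cd4 sgRNA mean minus control replicate 1 (circles), minus control replicate 2 (squares) and minus the mean of both (bars). Hypoxia targets are lowest at -1.05, Myc and ribosome biogenesis highest at 0.405, and the interferon-stimulated genes lie near 0 against control replicate 1 and at -0.546 against control replicate 2.

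Near Cd4, 53 annotated genes lay within 500 kb and 38 of them were tested. Distances are to the Cd4 gene body, and the distance to the sgRNA site was not computed. None was called in edgeR, 14 had an unadjusted p under 0.05, DESeq2 called 8 and voomLmFit 0. Over all tested genes 11.3% were higher and 13.6% lower at that unadjusted p, and DESeq2 called 4.79% higher and 7.92% lower. Of the 38, 20 had a higher and 18 a lower mean with Cd4 sgRNA, and 1 was at least 2-fold apart without overlap. That gene was Eno2, 95020 bases away and already described on the glycolysis list. Gpr162, an orphan receptor 498 bases from Cd4, had 0.702 and 0.904 CPM with Cd4 sgRNA, 0.216 and 0.766 CPM with control sgRNA and 0.0430 and 0.0467 CPM in wild-type cells. The transduced groups overlapped, with control replicate 2 at the Cd4 sgRNA level (log2 fold change 0.83 ± 0.54, adjusted p = 0.344). Against control replicate 1 alone the log2 fold change of Gpr162 was 1.91, and against control replicate 2 alone 0.10. Other glycolysis genes in the window were Tpi1 at 50535 bases, with a log2 fold change of -0.33 ± 0.09 and Gapdh at 273605 bases with -0.34 ± 0.18. Tapbpl, a relative of the MHC class I chaperone tapasin at 335680 bases, had 39.5 and 39.4 CPM against 26.2 and 21.3 CPM (log2 fold change 0.73 ± 0.12, adjusted p = 0.104).

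**Figure D5:**
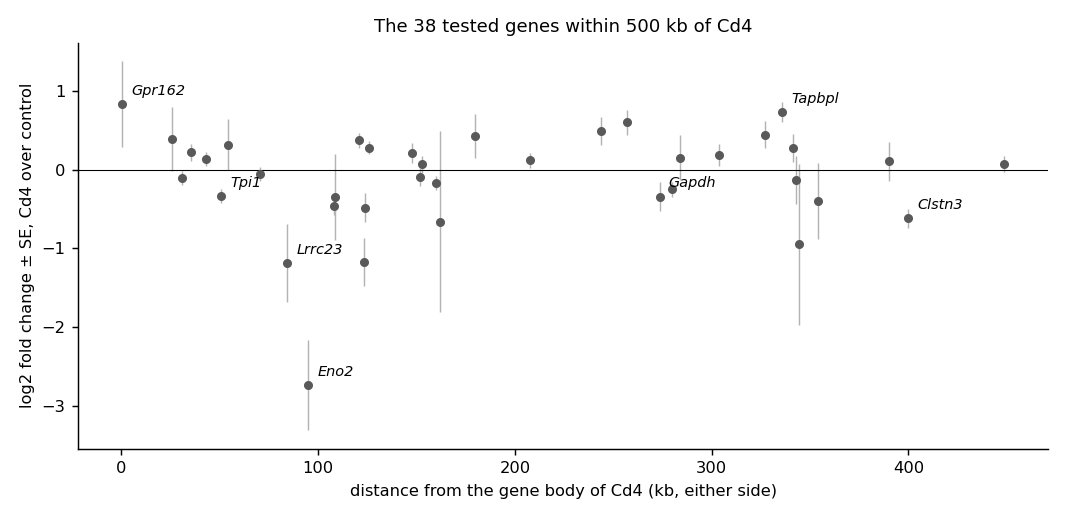
Log2 fold change ± SE of Cd4 sgRNA over control sgRNA for the 38 tested genes within 500 kb of Cd4, by distance from its gene body in kb. Points scatter around 0, Gpr162 at 498 bases is at 0.83 ± 0.54, and Eno2 is the lowest at -2.73 ± 0.57.

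Beyond the fixed lists, the genes with the smallest p whose groups did not overlap included several just outside the threshold. On the higher side, Nrros, a regulator of TGF-β activation and of reactive oxygen, had 59.7 and 60.4 CPM against 33.8 and 35.9 CPM (log2 fold change 0.79 ± 0.09, adjusted p = 0.0575). Asb2, part of a ubiquitin ligase, had 2.11 and 2.33 CPM against 0.612 and 0.705 CPM (log2 fold change 1.77 ± 0.22, adjusted p = 0.0926). Chst10, a sulfotransferase, had 143 and 136 CPM against 64.4 and 80.9 CPM (adjusted p = 0.0976). The groups did not overlap for these 3 genes, and the control replicates of Chst10 were the furthest apart. On the lower side, Plekhh1 had 3.97 and 3.41 CPM against 9.77 and 10.0 CPM (log2 fold change -1.43 ± 0.15, adjusted p = 0.0532) and Abhd18 had 4.67 and 5.01 CPM against 12.1 and 13.9 CPM (log2 fold change -1.42 ± 0.15, adjusted p = 0.0546). Over all tested genes 28 (0.225%) were at least 2-fold higher without overlap and 90 (0.724%) at least 2-fold lower.

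The medians of the remaining lists lay between -0.289 and 0.0369. Nuclear OXPHOS subunits had a median of -0.0215 over 44 genes, ribosomal proteins -0.0365 over 39, NRF2 antioxidant genes -0.0456 over 27, and autophagy and lysosome genes -0.0791 over 32. The DNA methylation machinery, listed together with Rela and Hsf1, had 0.0369 over 16. The p53 targets had -0.162 over 19 genes, BCL2 family genes -0.129 over 16, antigen presentation genes -0.103 over 24, germline genes -0.0994 over 10 and plasma cell genes -0.0694 over 12. Antigen presentation, germline and plasma cell genes lay on the higher side against control replicate 1 alone, at 0.0646, 0.0471 and 0.0641. The p53 targets lay lower against each control replicate alone, at -0.113 and -0.269. On the synaptic scaffold list Shank1 was called and rose, while the median over 9 genes was -0.289, and -0.193 and -0.273 against the control replicates alone.

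With a single control library the number of calls rose many times. Against control replicate 1 alone 1532 genes were higher (12.1% of 12670) and 1628 lower (12.8%), and against control replicate 2 alone 3884 were higher (30.3% of 12801) and 3951 lower (30.9%). Such a fit assumes that the lone control library varies like the wild-type and Cd4 sgRNA pairs. The chi-square per degree of freedom between replicates was 18.6 in wild-type, 12.2 in Cd4 sgRNA and 372 in control sgRNA cells. It used raw counts of all identifiers, mitochondrial genes included, and grows with depth, which was greatest in the controls. Its values are therefore not a measure of spread among the tested genes. Among those, the median log2 CPM difference was 0.275 between the control replicates and 0.0861 between the Cd4 sgRNA replicates. The control pair thus varied more than the Cd4 sgRNA pair. Control replicate 2 differed from the Cd4 sgRNA libraries by at least 2-fold at 1473 and 1590 genes, and control replicate 1 at 423 and 403.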

How the data were processed

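Polyadenylated RNA was sequenced as paired reads of 66 bases per the labels, aligned to mm10 (GRCm38) with Rsubread, and counted per Entrez gene with featureCounts; the strand setting was not given in the sources used here, so antisense partners cannot be told apart. The deposited values were raw counts per gene, not normalized, and they were used as deposited. Groups came from the sample labels. Members and gene lists were chosen with earlier results of these data known.

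Identifiers were matched to RefSeq symbols (25275 of 27179). Genes without a symbol, mitochondrial genes and rRNA were left out, which removed between 5.01% and 13.9% of counts, and filterByExpr left 12430 genes. Cd4 sgRNA was compared with control sgRNA by edgeR 4.0.16 (TMM, glmQLFit with robust = TRUE, glmQLFTest), fitted to all 6 libraries, with Benjamini-Hochberg adjustment at 0.05. The study's methods name voomLmFit, used here with limma 3.58.1 as an alternative, as was DESeq2 1.42.0. A log2 CPM carries a prior count of 2, and 3 counts correspond to between 0.027 and 0.14 CPM. Lists were described by counts and medians of log2 CPM differences, without a set test. The legacy quasi-likelihood method and a crossed pairing were added after the data were seen. Named genes were all those past the threshold, the 10 per direction of smallest p without overlap, the 3 of smallest p and the extremes of each list, the 10 per direction that differ most between control libraries, and Cd4, Tet1, Rela, Hsf1, Lck, Il16 and Gpr162. Members named beyond this rule were chosen after their values were seen. The values of some genes under this rule, 1 of them past the threshold, are not reported here. The scripts were tested on simulated data.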

Additional observations from a re-analysis of the deposited data

How the results depend on the processing

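Cd4 stayed past the threshold at a log2 fold change between 9.25 and 9.66 under every alternative. The other 7 named calls did not hold under all of them. Genes higher and lower numbered 3 and 6 in edgeR, 1 and 6 with voomLmFit, and 538 and 889 with DESeq2 (of 11225 genes with an adjusted p). With voomLmFit Slc2a1, Slc16a3, Mboat2, Stc1 and Zfp395 stayed past the threshold (adjusted p between 0.0155 and 0.0376), while Vcam1 and Shank1 did not. The numbers were 5 and 13 without a filter on low counts and 1 and 0 with the 4 transduced libraries alone. With control counts thinned to the Cd4 sgRNA depth they were 4 and 10. Leaving out 1 library gave between 1 and 3884 higher and between 0 and 3951 lower, with 1 and 0 without either Cd4 sgRNA replicate. Each of these fits lacked 1 library, whether its calls rose or fell, and the cause was not tested. Replicate numbers did not pair the libraries (correlation of replicate 1 deviations between Cd4 sgRNA and control sgRNA -0.137). The replicate block gave 2 higher and 5 lower, with a Cd4 log2 fold change of 9.46, and Shank1, Stc1 and Zfp395 were no longer past the threshold (adjusted p in edgeR between 0.0777 and 0.0841). With the control numbers crossed, a pairing chosen after seeing the data, the block gave 1 higher and 5 lower.

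The medians of the hypoxia, glycolysis, cholesterol, unfolded protein and ribosome biogenesis lists kept their sign under the alternatives run. Leaving out 1 library took the glycolysis median from -0.738 to -0.366 and the hypoxia median from -1.47 to -0.759. These fits filtered genes anew, and the share of all genes at least 2-fold apart was not computed for them. The counts of members that follow therefore have no background beside them. With 1 library left out, members at least 2-fold lower numbered between 3 and 9 for glycolysis, 10 and 22 for hypoxia (8 with a minimum of 1 CPM in 2 libraries and 8 with thinned control counts) and 1 and 3 for cholesterol, and members at least 2-fold higher between 0 and 1 for cholesterol, 0 and 2 for the unfolded protein response and 0 and 4 for ribosome biogenesis. Values near 0 changed sign in Tet1 (0.01 with thinned control counts), Lck (between -0.06 and 0.11 with 1 library left out), Hif1a (between -0.00 and 0.15, lowest against control replicate 1 alone) and Myc (between -0.20 and 0.28, and -0.01 without Cd4 sgRNA replicate 2).

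The 2 control libraries limit every comparison here, since their spread exceeds that of the Cd4 sgRNA libraries and each group held 2 libraries. Depth differed between groups, with more counts in both controls.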

Other observations

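Among the 10 genes per direction that differed most between the control libraries, 5 are given here, chosen after their values were seen. Ccr7, the receptor that guides lymphocytes to lymph nodes, had 4.35 CPM in control replicate 1 and 32.4 CPM in control replicate 2, beside 4.27 and 3.86 CPM with Cd4 sgRNA. C3, the central complement component, had 6.56 and 37.1 CPM in the controls and 4.79 and 3.71 CPM with Cd4 sgRNA, and Gsn, the actin-severing gelsolin, had 12.4 and 79.4 CPM beside 12.6 and 8.92 CPM. In these 3 genes control replicate 1 lay near the Cd4 sgRNA libraries and control replicate 2 far above them. In the other direction, Ifrd1 had 77.0 and 29.8 CPM in the controls and 131 and 139 CPM with Cd4 sgRNA, and Slc4a2, an anion exchanger, had 43.6 and 11.5 CPM beside 47.2 and 52.6 CPM.

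Transcripts of the mitochondrial genome were outside the test. Most of them were highest in control replicate 2, and only ND1, ND3 and ATP8 were not. COX1 had 16900 and 19400 CPM with Cd4 sgRNA, 20300 CPM in control replicate 1 and 56200 CPM in control replicate 2, and COX2 had 6520 and 7530 CPM beside 8080 and 16100 CPM. ND1 had 7290 and 9060 CPM with Cd4 sgRNA beside 7660 and 7360 CPM, and ND3 had 626 and 725 CPM beside 658 and 620 CPM, so both overlapped. These CPM are on the scale of the tested genes.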
